A study of Mus musculus with 10 samples.

Results

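The 9 genes described here mark tuft cells, the rare chemosensory cells of the gut epithelium. They are Dclk1, Trpm5, Pou2f3, Il25, Il17rb, Avil, Sh2d6, Gnat3 and Gfi1b, taken by name as known tuft cell genes and not by their values, out of 32132 genes in the annotated table. All 9 had a row, and 7 of them had enough counts to be tested among 19615 genes. Il25 and Gfi1b did not pass that filter on low counts. RNA was sequenced from whole colon of wild-type adult C57BL/6 mice, in 5 libraries per group. Every mouse drank 3% dextran sulfate sodium (DSS), which injures the colon epithelium, for 7 days. During those days the controls were injected intravenously each day with phosphate-buffered saline (PBS) at 200 ul per 20 g, and the treated mice with 4-HDHA, a hydroxylated form of docosahexaenoic acid, diluted in PBS, at the same volume and at a strength the labels write as 5 um. No mice without DSS are among these samples, so the set is described within colitis only. The question is whether 4-HDHA changed tuft cell gene expression in the injured colon. The labels number the colons but do not say that each came from a separate mouse, so the p-values measure the spread between these libraries.

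Tuft cells sense luminal compounds through a taste-like cascade in which receptors signal through G proteins to phospholipase C and release calcium, which opens the cation channel TRPM5. The transcription factor POU2F3 is needed for the lineage. Tuft cells are the main epithelial source of the cytokine IL-25, which acts on type 2 lymphocytes; their IL-13 in turn drives the epithelium to make more tuft cells.

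With 4-HDHA none of the 7 tested genes passed the test for a change. The largest differences were lower means of the G protein gene Gnat3 (0.329 ± 0.160 CPM in controls and 0.150 ± 0.114 CPM in treated libraries, SD, n = 5 each) and of the actin-binding gene Avil (5.83 ± 1.39 and 4.20 ± 0.943 CPM, SD, n = 5 each). The treated mean of Gnat3 lay under the limit of detection, 0.173 to 0.245 CPM. CPM are counts relative to the scaled library total. Trpm5, which encodes the channel at the end of the cascade, had nearly the same mean in both groups. Il25 transcripts were below the limit of detection in all 10 libraries. By edgeR's quasi-likelihood test with Benjamini-Hochberg adjustment over 19615 genes, 0 of the 7 passed an adjusted p of 0.05, where 0% of all genes tested passed. At an unadjusted p under 0.05 there were also 0 of 7, against 7.39% of all genes higher and 7.45% lower with 4-HDHA. With library totals in place of the TMM scaling, the counts over all genes were 1441 higher and 948 lower, against 1449 and 1462. DESeq2 called 0 of the 7 as well, against 1.71% of the genes for which it gave an adjusted p. It gave no adjusted p for Gnat3, so it could not call that gene. The groups overlapped in each of the 9 genes, where they stood apart in 2.79% of genes tested. Of the 7, 3 had a positive and 4 a negative log2 fold change, where 51.0% of all genes tested were positive. Their median log2 fold change was -0.03. In whole tissue, a change in the number of tuft cells and a change in RNA per tuft cell cannot be told apart.

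Library totals lay between 50915365 and 66470519 counts and did not separate the groups (exact permutation p = 0.968, two-sided). Low counts were uneven: over all genes and libraries a count of 4 occurred 10024 times, a count of 3 occurred 5672 times and a count of 5 occurred 3633 times. A sequenced fragment may therefore be worth about 4 counts, and a limit of 3 fragments, or 12 counts, was used, which is 0.173 to 0.245 CPM depending on the library. The limit covers counting error only. The epithelial list of 12 genes, with the adhesion gene Epcam among them, had a count in every gene and a summed level of 12221 to 19569 CPM with PBS and 12955 to 19842 CPM with 4-HDHA. Epcam itself averaged 1326 ± 242 and 1459 ± 180 CPM (SD, n = 5 each).

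Per length, all 9 genes were weakly expressed. FPKM are the authors' fragments per kilobase of transcript, scaled to sequencing depth. Avil was the highest at a mean of 1.31 FPKM over the 10 libraries, followed by the adaptor gene Sh2d6 at 0.846 FPKM, Dclk1 at 0.616 FPKM and the IL-25 receptor gene Il17rb at 0.450 FPKM. Below them stood Trpm5 at 0.261 FPKM, Pou2f3 at 0.198 FPKM, Gnat3 at 0.150 FPKM, Gfi1b at 0.0569 FPKM and Il25 at 0.0163 FPKM. Il17rb lay above Trpm5 in 10 of 10 libraries, and this was the only step of the order in which the mean difference in level (0.189 FPKM) exceeded its SD over libraries (0.122 FPKM). For the other neighbours the mean difference was smaller than its SD. They ranged from Gnat3 above Gfi1b in 9 of 10 libraries to Dclk1 above Il17rb in 6 of 10. The order was not tested. Avil stood above 62.1% of the genes in the table, Trpm5 above 46.7% and Il25 above 19.5%.

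**Figure D1:**
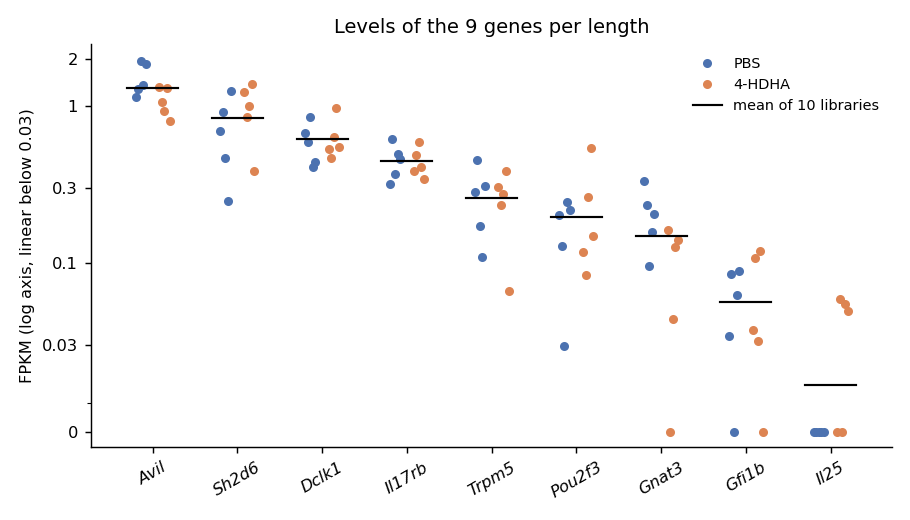
FPKM of each of the 9 genes (log axis, linear below 0.03) in the 5 PBS and 5 4-HDHA libraries, with the mean of the 10 libraries as a bar. The means fall from 1.31 FPKM for Avil to 0.0163 FPKM for Il25, and the colors are mixed within each gene.

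Among the genes of the taste-like cascade, Trpm5 encodes the cation channel at its end (mm10, chromosome 7, 143069153 to 143087214, minus strand). With PBS it stood at 2.27, 3.12, 1.12, 0.780 and 2.49 CPM in replicates 1 to 5. With 4-HDHA it stood at 2.35, 1.76, 1.84, 2.79 and 0.513 CPM. Each group held low libraries, PBS replicates 3 and 4 and 4-HDHA replicate 5, and the spread of 6.08-fold over the 10 libraries was far wider than the difference between groups. The log2 fold change of 4-HDHA over PBS was -0.08 (SE 0.47, 95% interval -1.12 to 0.97; adjusted p = 0.949 by edgeR). The interval reaches from 0.459-fold to 1.95-fold, so fold changes within these bounds remain compatible with these libraries. The bounds are not a limit of detection. Its sign turned on leaving out PBS replicate 2 (0.16), and likewise for replicate 5 of the controls (0.022) and of the treated group (0.16). It was -0.86 when the mean of the smooth muscle list was a covariate (adjusted p = 0.672 by edgeR, the lowest of the alternatives, whose highest was 0.987).

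Gnat3 encodes gustducin, the taste G protein alpha subunit (mm10, chromosome 5, 17962549 to 18019834, plus strand). It stood at 0.572, 0.346, 0.140, 0.243 and 0.347 CPM with PBS and at 0.265, 0, 0.0615, 0.192 and 0.233 CPM with 4-HDHA in replicates 1 to 5. Each 4-HDHA library lay below the PBS median, but PBS replicates 3 and 4 lay within the 4-HDHA range. The log2 fold change was -1.12 (SE 0.71, 95% interval -2.69 to 0.45; adjusted p = 0.445 by edgeR). The gene rested on 93 counts with PBS and 43 with 4-HDHA, only 6 of the 10 libraries exceeded 12 counts, and the estimate moved from -0.14 on log2(FPKM + 1), a scale that understates the change of low genes, to -2.74 with limma voom and quality weights. It was -0.80 without 4-HDHA replicate 2 and -0.62 with the mean of the epithelial list as a covariate.

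For the cytokine and its receptor the data differed in kind. Il25 encodes IL-25 (mm10, chromosome 14, 54932695 to 54935837, plus strand). It was listed at 0 in all 5 PBS libraries and in 4-HDHA replicates 1 and 3, and it had 4 counts in each of 4-HDHA replicates 2, 4 and 5. All 10 values were under the limit of 12 counts, so no fold change is given, and a difference between groups was not detectable at this depth. Il17rb, which encodes the receptor subunit that binds IL-25 (mm10, chromosome 14, 29996135 to 30008896, minus strand), was the steadiest of the 9 genes, with a highest library 1.75 times the lowest. It stood at 1.51, 2.44, 1.40, 2.08 and 2.12 CPM with PBS and at 1.72, 2.10, 2.29, 1.73 and 1.51 CPM with 4-HDHA. The means of 1.91 ± 0.440 and 1.87 ± 0.318 CPM (SD, n = 5 each) differed by -0.03 on the log2 scale (95% interval -0.54 to 0.47; adjusted p = 0.958 by edgeR). Its sign turned to 0.00032 with upper quartile scaling.

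Among the transcription factors, Pou2f3 (mm10, chromosome 9, 43123939 to 43210369, minus strand) spanned 19.9-fold between its lowest and highest library, the widest of the genes with a count in every library; its lowest, PBS replicate 3, held 6 counts, under the limit of 12. It stood at 0.776, 0.418, 0.0930, 0.832 and 0.829 CPM with PBS and at 0.429, 0.308, 0.830, 1.85 and 0.544 CPM with 4-HDHA. PBS replicate 3 was the lowest and 4-HDHA replicate 4 the highest of all 10. The log2 fold change was 0.43 (SE 0.61, 95% interval -0.92 to 1.78; adjusted p = 0.740 by edgeR). It turned to -0.15 without 4-HDHA replicate 4 and to -0.29 with limma voom and quality weights, and it was 0.15 without PBS replicate 3. POU2F3 is also known from keratinocytes, and the same libraries were extreme in the squamous list of 7 keratinocyte genes. The mean of that list was lowest in PBS replicate 3, at 0.67 log2 CPM, and highest in 4-HDHA replicates 4 and 5, at 4.43 and 4.41 log2 CPM. Gfi1b, which encodes a zinc finger repressor known from tuft cells and from red cell and platelet precursors (mm10, chromosome 2, 28609450 to 28621982, minus strand), had 36 counts in all with PBS and 37 with 4-HDHA. It was at 0 in PBS replicate 3 and 4-HDHA replicate 5, and it exceeded 12 counts in 2 of 10 libraries. Its means of 0.125 and 0.132 CPM lie below the detection limit. The list of 10 red cell and megakaryocyte genes ranged from 131 to 3986 summed CPM with PBS and from 171 to 2612 with 4-HDHA.

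**Figure D2:**
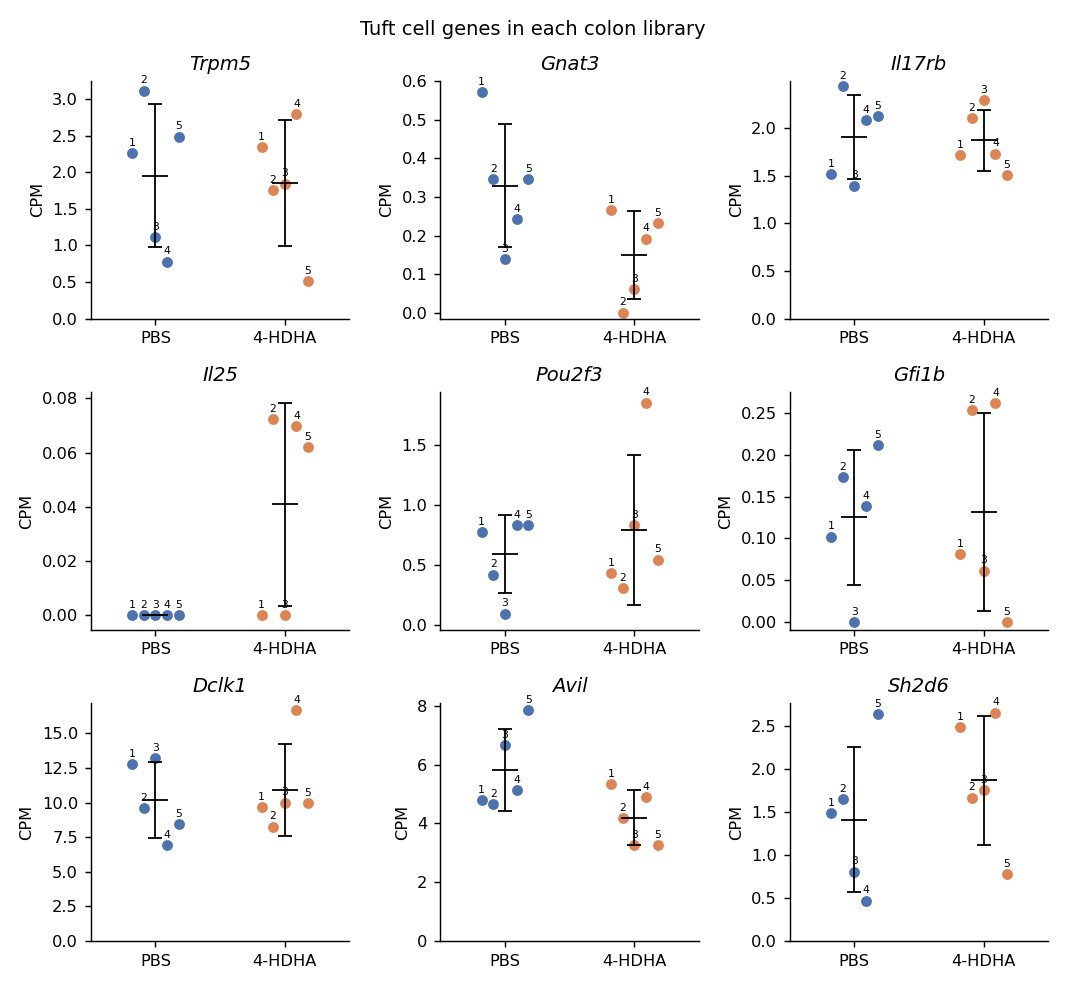
CPM of each of the 9 genes in the PBS (blue) and 4-HDHA (orange) libraries, each point a library with its replicate number, the bar and whiskers the mean and SD of 5. The groups overlap in every panel, and Trpm5 and Sh2d6 share their low libraries, PBS replicates 3 and 4 and 4-HDHA replicate 5.

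The last genes encode structural and signalling proteins of the tuft cell. Avil encodes advillin, an actin-binding protein of the villin family (mm10, chromosome 10, 127000709 to 127020994, plus strand). It stood at 4.80, 4.66, 6.68, 5.13 and 7.86 CPM with PBS and at 5.35, 4.18, 3.27, 4.91 and 3.26 CPM with 4-HDHA. Only 1 of the 5 4-HDHA libraries lay above the PBS median, although the ranges overlapped. The log2 fold change was -0.47 (SE 0.23, 95% interval -0.97 to 0.02), with an unadjusted p of 0.0605 and an adjusted p of 0.348 by edgeR. The adjusted p lay between 0.240 and 0.659 over the alternatives. The log2 fold change kept its negative sign in each of the 22 alternatives, and it was -0.58 to -0.34 with each library left out in turn. DESeq2 gave Avil an unadjusted p of 0.0394. By DESeq2 1755 of 32132 genes were lower at an unadjusted p under 0.05.

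Sh2d6, an SH2 domain gene (mm10, chromosome 6, 72513641 to 72521707, minus strand), stood at 1.49, 1.64, 0.806, 0.468 and 2.64 CPM with PBS and at 2.49, 1.67, 1.75, 2.65 and 0.777 CPM with 4-HDHA. The highest PBS and the highest 4-HDHA library differed by little, and PBS replicate 4 was the lowest of all 10. Its log2 fold change was 0.41 (SE 0.46, 95% interval -0.62 to 1.43; adjusted p = 0.672 by edgeR), and it turned to -0.19 when the smooth muscle mean was added to the fit. It was 0.18 without PBS replicate 4 and 0.76 without PBS replicate 5. Dclk1 encodes a microtubule-associated kinase that marks tuft cells and is also known from neurons (mm10, chromosome 3, 55242364 to 55539068, plus strand). It stood at 12.8, 9.58, 13.2, 6.95 and 8.42 CPM with PBS and at 9.70, 8.26, 10.004, 16.7 and 9.96 CPM with 4-HDHA. Only 4-HDHA replicate 4 stood above the PBS range. The log2 fold change was 0.10 (SE 0.24, 95% interval -0.43 to 0.63; adjusted p = 0.856 by edgeR), and it turned to -0.081 without that library, to -0.010 without PBS replicate 4 and to -0.027 with the epithelial covariate.

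**Figure D3:**
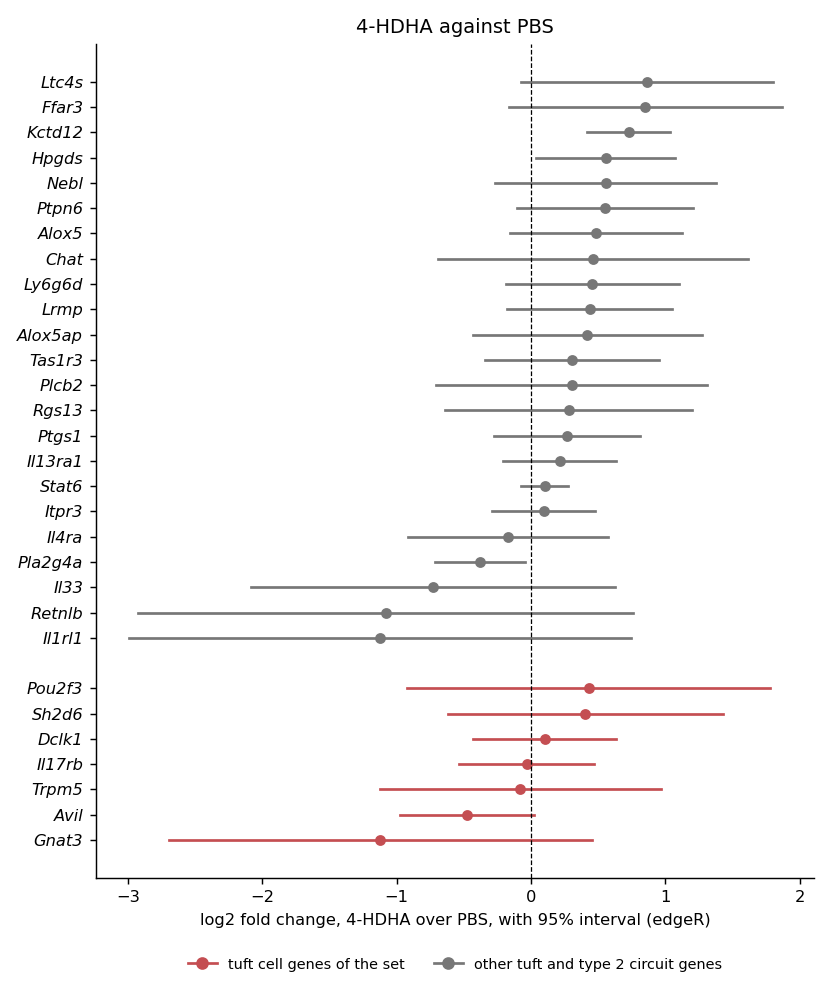
log2 fold change of 4-HDHA over PBS with its 95% interval from edgeR for the 7 tested tuft cell genes (red) and for other tuft and type 2 circuit genes (grey). Each red interval crosses 0, and among the grey genes Kctd12, Hpgds and Pla2g4a do not.

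RefSeq promoter windows (GRCm38.p6) were found for 7 of the 9 genes, in 8 windows of 250 bases before a transcription start, since Dclk1 has a pair of starts. Of these, 3 are printed, on the plus strand: that of Avil, which has the smallest p of the set and a RefSeq start at the start of the deposited gene, and those of the Dclk1 starts, whose transcripts share a single row of counts. The octamer bound by POU factors was searched as ATGCNAAT on both strands; it was in 0 of the 8 windows and in 2.86% of all 32851 windows. The first 7 letters with N fixed as A, ATGCAAA or its reverse complement TTTGCAT, were searched after that result was seen. They occurred in 4.12% of all windows and in 1 of the 8, that of Avil, which held 2 matches, as did 0.247% of windows with 2 or more. The capitals below mark these matches, which begin 115 and 15 bases before the Avil start; a match is a stretch of letters, not a bound site.

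Avil, chr10:127000459-127000708, plus strand: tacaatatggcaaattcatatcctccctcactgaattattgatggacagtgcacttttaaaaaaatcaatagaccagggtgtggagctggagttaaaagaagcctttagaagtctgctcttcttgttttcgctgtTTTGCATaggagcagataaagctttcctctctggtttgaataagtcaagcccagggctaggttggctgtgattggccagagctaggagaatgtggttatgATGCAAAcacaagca

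Dclk1, first start, chr3:55242114-55242363, plus strand: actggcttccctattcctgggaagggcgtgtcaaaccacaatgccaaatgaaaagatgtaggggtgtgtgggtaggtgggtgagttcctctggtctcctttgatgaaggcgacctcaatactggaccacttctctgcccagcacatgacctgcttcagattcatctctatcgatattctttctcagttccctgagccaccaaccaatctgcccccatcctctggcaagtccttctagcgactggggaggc

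Dclk1, second start, chr3:55461478-55461727, plus strand: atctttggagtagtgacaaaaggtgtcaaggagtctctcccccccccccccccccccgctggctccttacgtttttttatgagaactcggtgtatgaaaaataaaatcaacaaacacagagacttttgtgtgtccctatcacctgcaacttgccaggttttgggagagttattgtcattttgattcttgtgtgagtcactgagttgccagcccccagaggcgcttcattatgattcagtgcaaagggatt

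Other genes of the tuft cell were described from 3 lists chosen from textbook knowledge, with earlier results of these data known. The lists cover taste-like signalling, lipid and acetylcholine mediators, and identity. Of 38 genes, 37 had a row and 31 were tested. In edgeR's quasi-likelihood test 0 passed the adjusted threshold, where 0% of all genes tested passed. At an unadjusted p under 0.05 there were 2 higher and 1 lower, against 7.39% of all genes higher and 7.45% lower. Of the 31, 26 had a positive and 5 a negative log2 fold change (83.9% positive, against 51.0% of all genes tested), with a median log2 fold change of 0.30 against 0.01 over all genes. Positive signs were also frequent in several of the 10 lists of other cell types. All tested genes were positive for fibroblasts (8 of 8, median log2 fold change 0.93, 5 at an unadjusted p under 0.05), smooth muscle (9 of 9, 0.84, 3), B cells (8 of 8, 2.55, 2) and macrophages (6 of 6, 0.60, 2). Of the neuron and glia genes 9 of 10 were positive (0.44, 2), of the squamous genes 6 of 7 (0.55, 1), and of the epithelial genes 4 of 12 (-0.08, none higher and 1 lower). Of the enteroendocrine genes 4 of 8 were positive (-0.004, none higher and 1 lower). For red cell and megakaryocyte genes it was 3 of 9 (-0.82, 0), and for neutrophil genes 1 of 5 (-0.88, 0). The part of these lists in the tuft cell values was not tested.

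In the mediator list, Hpgds, the hematopoietic prostaglandin D synthase, stood at 11.9 ± 3.48 CPM in controls and at 17.5 ± 4.36 CPM in treated libraries (mean ± SD of 5). The log2 difference was 0.56 (adjusted p = 0.323 by edgeR). The leukotriene C4 synthase gene Ltc4s showed a log2 difference of 0.86, the 5-lipoxygenase gene Alox5 0.48, its activating protein gene Alox5ap 0.42, the cyclooxygenase gene Ptgs1 0.27 and the choline acetyltransferase gene Chat 0.46. Without 4-HDHA replicate 4 the values were 0.50 for Ltc4s, 0.19 for Alox5ap and 0.024 for Ptgs1, and without 4-HDHA replicate 3 Chat was at 0.15. Pla2g4a, the cytosolic phospholipase A2 that frees arachidonic acid, had the opposite sign, at 54.2 ± 9.27 CPM in controls and 41.7 ± 7.62 CPM in treated libraries (mean ± SD of 5). Its log2 difference was -0.38 (adjusted p = 0.315 by edgeR). None of these passed the threshold.

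In the identity list, DESeq2 called 1 gene, Kctd12, where it called 1.71% of the genes for which it gave an adjusted p. Kctd12 stood at 46.4 ± 6.04 CPM in controls and 76.9 ± 13.98 CPM in treated libraries (mean ± SD of 5). Each 4-HDHA library, from 60.5 to 92.9 CPM, lay above each PBS library, from 40.5 to 55.7 CPM. The groups stood apart in 2.79% of all genes tested, in either direction. The adjusted p of Kctd12 was 0.0101 by DESeq2 and 0.283 by edgeR, and over all alternatives it lay between 0.0101 and 0.554. Kctd12 encodes an auxiliary subunit of GABA-B receptors and is known from many cell types besides tuft cells. The phosphatase gene Ptpn6 had a log2 difference of 0.55, and the genes Lrmp, Ly6g6d and Nebl 0.44, 0.46 and 0.56, none passing. Without 4-HDHA replicate 5 Ptpn6 was at 0.14 and Nebl at 0.15, and without PBS replicate 3 Lrmp was at 0.26.

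In the taste-like list the phospholipase gene Plcb2, which acts between Gnat3 and Trpm5, stood at 5.64, 4.29, 5.92, 3.47 and 5.57 CPM with PBS and at 3.59, 3.30, 3.15, 4.66 and 16.0 CPM with 4-HDHA. The highest library, 4-HDHA replicate 5, was also the one with the highest mean of the B cell list, at 5.84 log2 CPM, whereas the remaining 9 lay between -1.09 and 1.99 log2 CPM. The log2 fold change of Plcb2 was 0.30, and -0.44 without that library. The calcium channel gene Itpr3 had 0.10, the receptor genes Tas1r3 and Ffar3 0.31 and 0.85, and the G protein regulator gene Rgs13 0.28, none passing.

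The type 2 circuit, the cytokines and receptors that link tuft cells to lymphocytes, also held 0 called genes of 13 tested, with 8 positive and 5 negative log2 fold changes and 0 at an unadjusted p under 0.05. Il13 had 3 counts in 1 library, PBS replicate 2, and was at 0 in the others, all under the detection limit. The IL-4 and IL-13 receptor gene Il4ra stood at 99.1 ± 42.4 CPM in controls and 88.1 ± 36.2 CPM in treated libraries (mean ± SD of 5). Its partner Il13ra1 showed a log2 difference of 0.21 and the signal transducer Stat6 0.10. The IL-33 receptor gene Il1rl1 had -1.12, Il33 -0.73 and the goblet cell product Retnlb -1.08, with 95% intervals of -3.00 to 0.75, -2.08 to 0.63 and -2.92 to 0.76. Without PBS replicate 3, which held 42.8 CPM of Il1rl1, the log2 fold change of that gene was -0.17, and that of Il33 was -0.36. Retnlb ran from -0.52 without PBS replicate 1 to -2.13 without 4-HDHA replicate 5.

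Across the 10 libraries most pairs of tuft cell genes had a weakly positive correlation. Of 21 pairs of the 7 tested genes, 16 had a positive Pearson r of log2 CPM, with a median of 0.24, and 0 passed adjustment over the 21 pairs by permutation test. Positive values were also frequent outside these pairs. Of 98 correlations of the same 7 genes with the marker lists, 65 were positive, with a median of 0.16. The strongest pair was Trpm5 and Sh2d6 (Pearson r = 0.86, permutation p = 0.00254, adjusted p = 0.0533; Spearman rho = 0.75, permutation p = 0.0177, adjusted p = 0.372). Without the 2 libraries farthest from the median of Trpm5, 4-HDHA replicate 5 and PBS replicate 4, r was 0.77. With values centred within each group r was 0.93 (permutation adjusted p = 0.0252 over the 21 pairs). Dclk1 and Il17rb had the most negative value, r = -0.58 (permutation p = 0.0819, adjusted p = 0.805; rho = -0.49), and -0.71 without the 2 libraries farthest from the Dclk1 median. Dclk1 and Trpm5 had r = 0.29, and -0.22 without 4-HDHA replicate 4 and PBS replicate 4.

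**Figure D4:**
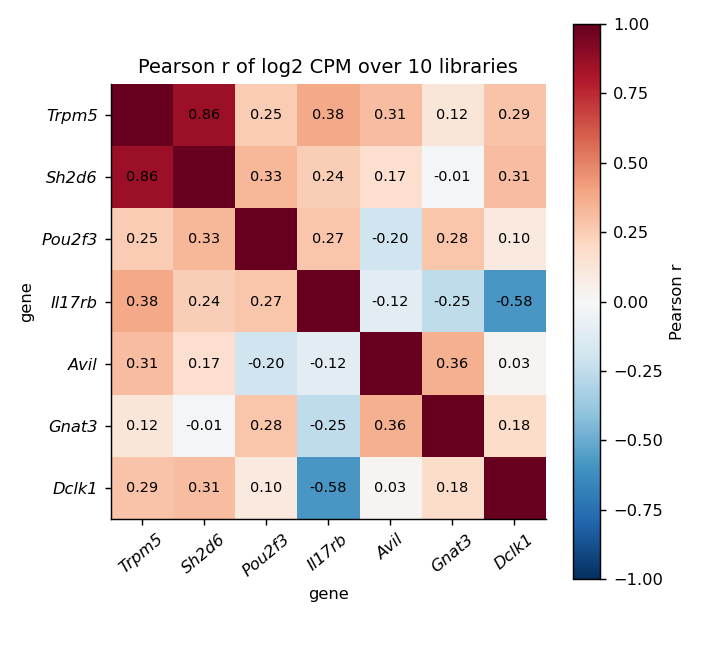
Pearson r of log2 CPM over the 10 libraries for each pair of the 7 tested tuft cell genes, as color and number. The pair Trpm5 and Sh2d6 at 0.86 stands above the rest, which lie between -0.58 and 0.38.

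Over the 15485 genes whose mean level reached 1 CPM, those most like Trpm5 in log2 CPM over the 10 libraries were Pcdhga5 (Pearson r = 0.93), Cpxm2 (0.92), Tsc22d1 (0.92), Tceal3 (0.91) and Tmprss5 (0.91). These values are a description over 10 libraries of 1 tissue and carry no test. Of the 9 genes, 4 others reached that level, and they ranked 30 (Sh2d6), 3123 (Il17rb), 3877 (Avil) and 4075 (Dclk1), with a median r of 0.34 against -0.01 over all genes ranked. The median r was 0.51 for 6 mediator genes, among them Ltc4s (rank 911, r = 0.65) and Ptgs1 (rank 1425, r = 0.58). It was -0.39 for 3 taste-like signalling genes, including Plcb2 with its high 4-HDHA replicate 5 (rank 14860, r = -0.54), and -0.13 for 14 identity genes. The mean of the mediator list placed the 10 libraries in the same order as the mean of the macrophage list. Both were lowest in PBS replicate 4 (2.32 and 3.71 log2 CPM) and highest in 4-HDHA replicate 4 (3.59 and 6.16 log2 CPM). The part of macrophages in the mediator values was not tested.

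Each of the 7 genes was also set against the 10 marker lists of other cell types and the 4 tuft and type 2 lists, and 0 of 98 correlations passed adjustment by permutation test. Among the tuft and type 2 lists, Sh2d6 had r = 0.73 with the mediators, and 0.53 without its 2 farthest libraries. Dclk1 had 0.64 with the type 2 circuit (0.45 without its 2). Il17rb had -0.68 with that circuit (-0.75 without its 2), and Avil -0.57 with the taste-like list (-0.51 without its 2). With the macrophage list Dclk1 had r = 0.71, and -0.12 without its 2 farthest libraries. With the epithelial list Trpm5 had r = -0.15 (rho = 0.03) and Sh2d6 r = -0.24 (rho = -0.47). These signs turned, to 0.58 and 0.22, without 4-HDHA replicate 5 and PBS replicate 4, the 2 libraries farthest from the median of each gene. The highest Pearson values of Sh2d6 were 0.78 with the neuron and glia list (permutation p = 0.0081, adjusted p = 0.198; rho = 0.75) and 0.78 with the macrophage list (permutation p = 0.0061, adjusted p = 0.198; rho = 0.77), which were 0.43 and 0.54 without its 2 farthest libraries. Sh2d6 had r = 0.77 with the fibroblast list (permutation p = 0.00683, adjusted p = 0.198; Spearman rho = 0.92, permutation p = 0.00053, adjusted p = 0.0519). Without the same libraries that r was 0.63. With the smooth muscle list Sh2d6 had r = 0.76 (permutation adjusted p = 0.198; rho = 0.71), and 0.82 without them. Trpm5 had r = 0.69 with the smooth muscle list (permutation adjusted p = 0.247; rho = 0.50), and 0.59 without its 2 farthest libraries. With the neuron and glia list Trpm5 had r = 0.75 (permutation adjusted p = 0.198; rho = 0.44), and 0.015 without those libraries; with the B cell list it had r = -0.74 (permutation adjusted p = 0.198; rho = -0.47), and -0.51 without them. The smooth muscle list ranged from 1057 to 5079 summed CPM with PBS and from 1433 to 8111 with 4-HDHA, and the fibroblast list from 667 to 1301 and from 1113 to 4014; all of their genes had counts, and their part in the tuft cell values was not tested beyond the covariate. Gnat3 had r = 0.66 with the enteroendocrine list (permutation adjusted p = 0.283; rho = 0.68), and 0.60 without its 2 farthest libraries. Pou2f3 had r = 0.80 with the squamous list (Pearson permutation p = 0.0146, adjusted p = 0.198; Spearman rho = 0.44, adjusted p = 0.900). Without PBS replicate 3 and 4-HDHA replicate 4, the 2 libraries farthest from the Pou2f3 median, r was 0.08, so the relation rests on those libraries.

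**Figure D5:**
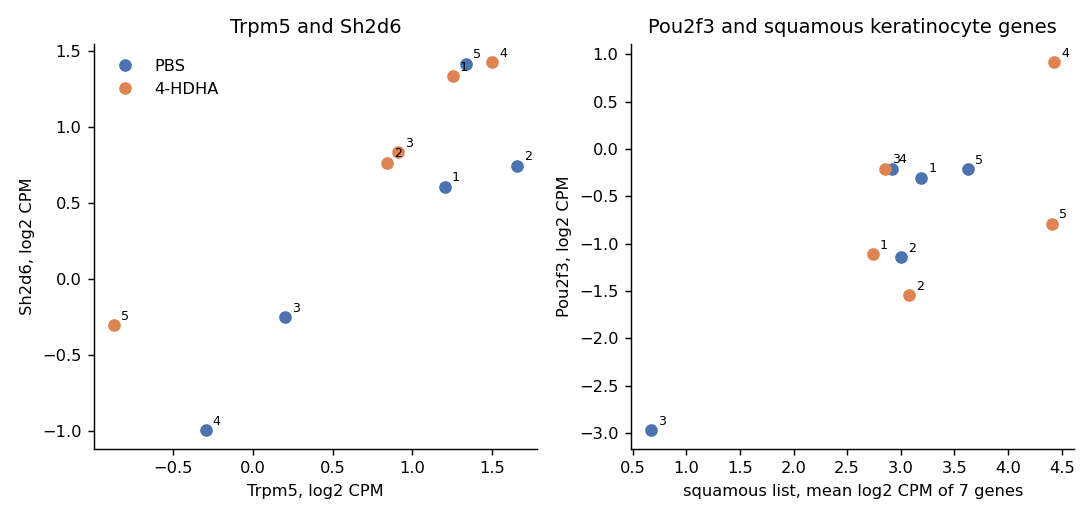
Left, log2 CPM of Sh2d6 against Trpm5. Right, log2 CPM of Pou2f3 against the mean log2 CPM of 7 squamous genes; each point is a library with its replicate number, PBS in blue and 4-HDHA in orange. Trpm5 and Sh2d6 lie along a line (r = 0.86), while the relation on the right rests on PBS replicate 3 and 4-HDHA replicate 4.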

How the data were processed

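RNA from whole colon was sequenced in 10 libraries as poly(A), strand-marked (dUTP) paired-end libraries, per the labels' protocols. According to the submitters' processing notes, the tools were cutadapt 1.9, HISAT2 2.0.4 and StringTie 1.3.4d, with edgeR and DESeq2, on mm10; how each was set is not stated in the labels. The authors deposited whole-number counts per gene, not scaled, and a second table with the same counts, gene names, positions and FPKM values per the file headers; the counts differed in 0 cells. Of the 9 genes, 8 had the same position in GENCODE M21, and Trpm5 did not.

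Groups were compared on the counts by edgeR 4.0.16 under R 4.3.3 (TMM scaling, filterByExpr, quasi-likelihood F test with robust dispersions, group as the only term, Benjamini-Hochberg adjustment over 19615 genes at 0.05). SE is that implied by the F test. CPM use the TMM-scaled totals, and log2 CPM a prior count of 2. In counts simulated for this comparison over the 19615 genes, the test recovered 36 of 100 genes changed 2-fold and 75 of 100 changed 4-fold, with 2 false calls. The changed genes were drawn at random from all genes tested. The recovery of genes at the low levels and wide spread of the 9 was therefore not measured. Correlations used 100000 permutations. The alternatives were DESeq2 1.42.0, limma 3.58.1 (voom with quality weights, and trend on log2(FPKM + 1) and log2(FPKM + 0.1)), other scalings, no filter, covariates, the replicate number as a block, each library left out and, added after the data were seen, counts divided by 4. Named genes were the 9, up to 5 with the smallest p of each list, Plcb2, Ptgs1, Alox5ap, Chat, Il13, Il4ra and Epcam, and the 5 most like Trpm5; a further gene of this rule is not reported here. The list entry Gm684 was matched to Colca2 through RefSeq synonyms. The 9 genes and the lists were chosen with earlier results of these data known.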

Additional observations from a re-analysis of the deposited data

Results flagged for a closer look

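Dclk1 in the 4-HDHA group had 1 library, replicate 4 at 16.7 CPM, far above the other 4. Among the other named genes, the same held for 4-HDHA replicate 5 in Plcb2 (16.0 CPM), Ptpn6 (96.7 CPM) and Retnlb (61.3 CPM), for PBS replicate 3 in Il1rl1 (42.8 CPM) and for PBS replicate 2 in Il13 (0.0433 CPM, from 3 counts). Epcam was far below the others in 4-HDHA replicate 3, at 1141 CPM. These are 7 cases among 68 groups of 5 libraries. Il25 with PBS and Il13 with 4-HDHA, at 0 in every library, could not be flagged. A count in only 1 library, as for Il13 with PBS, is flagged whatever its size. Chance gives about 1 in 20 for normally distributed values, and some of these genes were picked by their p.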

How the results depend on the processing

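With these totals and 5 libraries per group, the 95% interval of the fold change reached from 0.459 to 1.95 for Trpm5, 0.529 to 3.44 for Pou2f3, 0.651 to 2.69 for Sh2d6 and 0.154 to 1.37 for Gnat3; Il25 lay under the limit of 12 counts in every library, and Gfi1b exceeded it in 2 of 10. DESeq2 called 312 genes (200 higher, 112 lower), 1 of them among the other tuft and type 2 genes (Kctd12), against 0 in edgeR and each other setting run. No alternative called any of the 9 genes, though DESeq2 gave no adjusted p for Gnat3, Il25 and Gfi1b. With values centred within groups, 1 pair of the 9 genes (Trpm5 and Sh2d6) passed. Signs of log2 fold changes that turned were those of Dclk1 (-0.027) and Chat (-0.30) with the epithelial covariate; Sh2d6 (-0.19), Rgs13 (-0.012) and Il4ra (0.22) with the smooth muscle covariate; Pou2f3 (-0.29), Plcb2 (-0.33) and Itpr3 (-0.0090) with limma voom; and Il17rb (0.00032) with upper quartile scaling. The cause was not tested. Leaving out each library in turn gave log2 fold changes of -0.081 to 0.21 for Dclk1, -0.28 to 0.16 for Trpm5, -0.15 to 0.64 for Pou2f3, 0.18 to 0.76 for Sh2d6, -0.13 to 0.072 for Il17rb, -0.44 to 0.47 for Plcb2, -0.038 to 0.19 for Itpr3 and -0.43 to 0.0082 for Il4ra. With counts divided by 4, chosen after the data were seen, 0 genes were called and Gnat3 was not tested. Without the filter Il25 had an adjusted p of 0.425 in edgeR, from 12 counts. At an unadjusted p under 0.05 the epithelial covariate gave 1144 genes higher and 2608 lower, and the smooth muscle covariate 948 and 512.

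The replicate numbers did not pair the libraries: correlations of same-numbered libraries' deviations were 0.0135, 0.0836, 0.0772, -0.316 and -0.00293. With the replicate block 0 genes were called, 874 were higher and 1563 lower at an unadjusted p under 0.05, and the log2 fold changes were -0.47 for Avil, -1.33 for Gnat3, 0.54 for Sh2d6 and -0.013 for Plcb2.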
